A study of Homo sapiens with 16 samples.

Results

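A set of 7 genes of the aryl hydrocarbon receptor pathway was followed, namely AHR, ARNT, ARNT2, AHRR, CYP1A1, CYP1B1 and TIPARP. They were taken by gene symbol from the gene FPKM table and joined to the counts by Ensembl identifier, which gave 7 of the 63677 counted gene IDs, each with 1 identifier and 1 row. All 7 passed the filter on low counts in both lines. The RNA was sequenced from MiaPaCa2 and PANC1, both human pancreatic ductal adenocarcinoma cell lines, which were cultured for 24 hours under 4 conditions. These were untreated control cells, 40 nmol/L gemcitabine (a nucleoside analogue used against pancreatic cancer), 50 µmol/L genistein (a soy isoflavone and phytoestrogen), and both drugs at the same doses, called co-treatment. Genistein was prepared in DMSO and gemcitabine was not. The labels give the control group no drug, and whether it received DMSO at the same concentration is not given in the sources used here. Each of the 8 groups had 2 biological replicates, I and II, so that 16 libraries were compared. In each line the comparisons with control share the same 2 control libraries.

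The aryl hydrocarbon receptor, encoded by AHR, is a ligand-activated transcription factor of the bHLH-PAS family. In resting cells it is held in the cytosol by HSP90 chaperones, and after binding a ligand such as a dioxin, a tryptophan metabolite or a flavonoid it enters the nucleus and pairs with ARNT. The pair binds xenobiotic response elements and switches on CYP1A1, CYP1B1, TIPARP and AHRR, and TIPARP and AHRR restrain the receptor in turn. Transcript levels of the receptor's targets are therefore widely used as a readout of the pathway, although each target also answers to other regulators.

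In GRCh37 the genes lie at chr7:16955983-17385776 on the plus strand (AHR, ENSG00000106546), chr1:150782189-150849184 minus (ARNT, ENSG00000143437), chr15:80696692-80890274 plus (ARNT2, ENSG00000172379), chr5:321829-438406 plus (AHRR, ENSG00000063438), chr15:75011883-75017877 minus (CYP1A1, ENSG00000140465), chr2:38294116-38337044 minus (CYP1B1, ENSG00000138061) and chr3:156391024-156424559 plus (TIPARP, ENSG00000163659). Reads were summed over the exons of each gene. The readthrough gene PDCD6-AHRR shares 58.7% of the exon bases of AHRR on the same strand and ENSG00000283321 shares 29.5% of those of AHR, and both were not analysed here, so the values of AHRR and AHR are uncertain where reads fall in shared exons. CYP1B1-AS1 overlaps 11.2% of the exon bases of CYP1B1 on the opposite strand.

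The promoters of the induced genes are shown here because the response element is the DNA letter code that links the receptor to its targets. The core of the element was searched as GCGTG on the strand of the gene and as CACGC, which is the same core on the other strand, in the 250 bases before each transcription start in RefSeq (GRCh38.p14). Windows were listed for 5 of the 7 genes, with 8 starts in all, and 4 of these 8 windows held the core. ARNT2 and CYP1B1 had no entry. Among all 35116 promoter windows listed there, 32.2% held the core, and 4.52% held a longer form, TNGCGTG or its reverse complement CACGCNA. The core is thus common in promoters, and a match is a description of letters and not a bound site. The windows below are written 5′ to 3′ on the strand of the gene, and capitals mark the core.
CYP1A1, chr15:74725529-74725778, minus strand: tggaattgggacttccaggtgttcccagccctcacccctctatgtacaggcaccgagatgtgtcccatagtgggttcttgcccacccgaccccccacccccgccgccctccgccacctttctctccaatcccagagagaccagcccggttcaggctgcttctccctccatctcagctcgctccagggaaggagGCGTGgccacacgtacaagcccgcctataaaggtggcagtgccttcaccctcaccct
TIPARP, chr3:156674340-156674589, plus strand: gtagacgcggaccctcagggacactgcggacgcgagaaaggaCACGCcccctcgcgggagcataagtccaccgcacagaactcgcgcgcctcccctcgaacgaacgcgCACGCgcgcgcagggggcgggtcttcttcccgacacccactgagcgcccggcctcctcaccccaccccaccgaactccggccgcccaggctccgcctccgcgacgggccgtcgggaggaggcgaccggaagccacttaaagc
AHRR, chr5:321464-321713, plus strand: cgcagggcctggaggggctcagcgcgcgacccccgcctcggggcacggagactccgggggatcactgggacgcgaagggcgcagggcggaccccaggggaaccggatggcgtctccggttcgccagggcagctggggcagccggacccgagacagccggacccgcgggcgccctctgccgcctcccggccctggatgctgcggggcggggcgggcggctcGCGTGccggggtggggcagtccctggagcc
CYP1A1, which encodes a cytochrome P450 that oxidises polycyclic aromatic hydrocarbons, had a single core whose first base lay 57 bases before the start. TIPARP, which encodes a mono-ADP-ribosyltransferase that restrains the receptor, had 2 cores on the opposite strand, at 208 and 142 bases before the first of its 3 listed starts, and none before the other starts. AHRR, the repressor that competes with the receptor for ARNT, had a core 30 bases before its first start, and this was the only match among these windows to the longer form. Its second start had cores at 247 and 42 bases. No core lay in the 250 bases before AHR or ARNT.

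Library depth, as reads assigned to genes, lay between 12943482 and 31991860. Epithelial markers, keratins among them, summed to between 852 and 2561 FPKM per library, but the epithelial markers EPCAM and CDH1 and the mesenchymal marker CDH2 were at most 1 FPKM in every MiaPaCa2 library. The 3 mesenchymal markers, VIM above all, summed to between 2338 and 3877 FPKM in MiaPaCa2 and between 1412 and 2746 FPKM in PANC1. Acinar, islet and hepatocyte markers were at most 1 FPKM in all 16 libraries. Of 3 fibroblast markers, 1 exceeded 1 FPKM in MiaPaCa2 and 2 in PANC1, with DCN at most 1 FPKM in both. Of 3 immune markers CD68 alone exceeded 1 FPKM, and the list summed to between 14.2 and 37.6 FPKM in MiaPaCa2 and between 108.4 and 221.2 FPKM in PANC1, although CD68 had at most 4 and 17 counts in a library of these lines. Of 3 endothelial markers CDH5 alone exceeded 1 FPKM, in MiaPaCa2. Libraries differed in their trend with GC content. The slope of log2 CPM per 10 percentage points of GC ran from -0.23 to 0.29, with values of -0.23 and -0.14 in the 2 MiaPaCa2 control libraries and of 0.29 and -0.07 in the 2 PANC1 control libraries, so that a test with this trend removed is given where it changed a result. That test used limma on log2 CPM in place of limma-voom, so removal of the trend and the change of fit cannot be told apart. In bulk samples fewer cells with a transcript and less of it in each cell cannot be told apart.

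Untreated cells of the lines were compared first, and AHR, its partner ARNT2, its repressor AHRR and its target CYP1B1 were all far more abundant in PANC1. Levels between genes are given here as FPKM, which is scaled by transcript length. In MiaPaCa2 controls TIPARP (31.1 ± 0.356 FPKM, SD, n = 2) and ARNT (24.0 ± 0.490) were highest, followed by CYP1A1 (5.86 ± 0.155), CYP1B1 (3.53 ± 0.280), AHRR (1.59 ± 0.180), AHR (1.46 ± 0.685) and ARNT2 (0.572 ± 0.295). In PANC1 controls CYP1B1 came first (135 ± 36.5 FPKM), followed by TIPARP (37.1 ± 4.64), ARNT (20.9 ± 0.387), AHR (9.96 ± 4.51), AHRR (9.46 ± 0.759), CYP1A1 (7.62 ± 1.30) and ARNT2 (3.66 ± 0.450). The libraries of AHR and AHRR overlapped in MiaPaCa2, and those of AHR, AHRR and CYP1A1 overlapped in PANC1, so no order was drawn among these neighbours. CYP1A2, the hepatic relative of CYP1A1, had at most 1 count in any library.

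**Figure D1:**
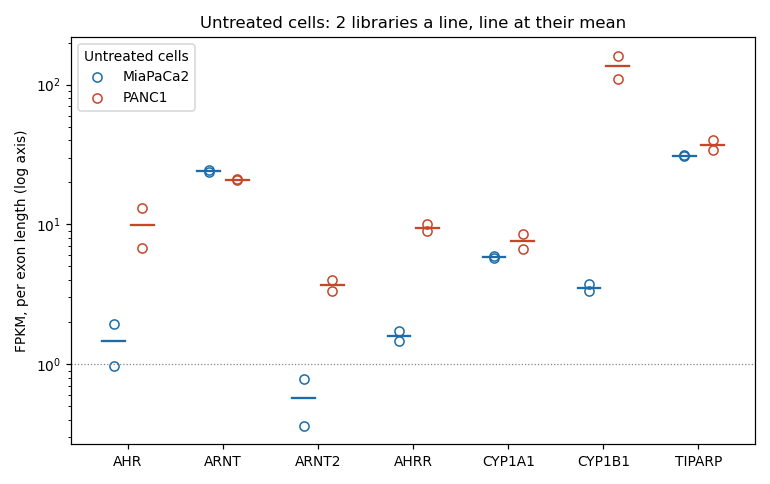
FPKM (log axis) of the 7 genes in untreated MiaPaCa2 and PANC1 cells, with 1 circle per library, a bar at the mean of the 2 libraries and a dotted line at 1 FPKM. CYP1B1 is separated most between the lines (3.53 against 135 FPKM), while ARNT, CYP1A1 and TIPARP lie close together.

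The difference between the untreated lines was tested on counts with limma-voom, over 17863 genes. CYP1B1, a cytochrome P450 that metabolises oestrogens as well as xenobiotics, had 277 and 219 counts in the MiaPaCa2 controls and 11248 and 25672 in the PANC1 controls, which made it 40.4-fold higher in PANC1 (log2 difference 5.33, SE 0.22, adjusted p = 2.95e-10). AHR had 76 and 50 counts against 447 and 1079 and was 6.57-fold higher (log2 difference 2.72, SE 0.25, adjusted p = 5.99e-07). AHRR was 5.63-fold higher (adjusted p = 1.34e-08), and ARNT2, a paralogue of ARNT best known from neurons, was 11.1-fold higher from only 33 and 20 counts in MiaPaCa2 (adjusted p = 2.46e-08). None of the 7 genes, passing or not, had overlapping libraries between the untreated lines, so this does not set these 4 apart. ARNT alone was lower in PANC1, by a small margin (log2 difference -0.27, SE 0.08, adjusted p = 0.00929), and this call was lost without PANC1 control replicate II (-0.19, adjusted p = 0.0831). CYP1A1 (log2 difference 0.33, adjusted p = 0.0774) and TIPARP (0.32, adjusted p = 0.0535) did not pass. CYP1A1 passed without PANC1 control replicate II (0.56, adjusted p = 0.00842), and TIPARP passed without any of PANC1 control replicate I, PANC1 genistein replicate I, PANC1 co-treatment replicate II or either MiaPaCa2 co-treatment library (adjusted p from 0.0176 to 0.0496) and by edgeR (adjusted p = 0.0488). In all, 5 of 7 genes passed, beside 63.3% of all genes tested.

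Gemcitabine raised 5 of the 7 genes in MiaPaCa2, namely the receptor, ARNT2 and the 3 targets CYP1A1, CYP1B1 and TIPARP. This is read beside 39.0% of the 16064 genes tested, which passed in either direction, 3109 higher and 3154 lower. All values by library that follow are CPM, which are counts scaled to a common library size by TMM over the 16 libraries. AHR stood at 4.62 and 3.83 CPM in control replicates I and II and at 8.46 and 7.35 CPM with gemcitabine. Both treated libraries were above both controls, a 1.79-fold rise (log2 change 0.84, SE 0.19, adjusted p = 0.00373). ARNT2 went from 2.01 and 1.53 CPM to 5.38 and 5.03 CPM, a 2.79-fold rise (log2 change 1.48, SE 0.27, adjusted p = 0.00109) at a mean of only 0.973 FPKM in treated cells. CYP1A1 stood at 15.2 and 16.2 CPM in controls and at 26.8 and 22.6 CPM with gemcitabine, a 1.51-fold rise (log2 change 0.60, SE 0.13, adjusted p = 0.00403). The groups did not overlap for any of the 7 genes, AHRR and ARNT included, so this does not set the 5 apart. The share of all genes with such separation was not computed, here or below. CYP1B1 rose 1.37-fold from 16.8 and 16.8 CPM to 25.9 and 22.1 CPM (adjusted p = 0.0174), and TIPARP rose 1.24-fold from 106.6 and 102.95 CPM to 130 and 140 CPM (adjusted p = 0.0435). The repressor AHRR (log2 change 0.36, adjusted p = 0.0647) and ARNT (-0.18, adjusted p = 0.113) did not pass. With the GC trend removed ARNT passed (-0.17, adjusted p = 0.0286), where 7409 of 15757 genes did.

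The calls on AHR and ARNT2 held whichever MiaPaCa2 library was left out, but not on log2(FPKM + 1), where the changes were 0.87 (adjusted p = 0.0942) and 0.34 (adjusted p = 0.158). CYP1A1 lost its call without control replicate I (adjusted p = 0.0582) or gemcitabine replicate I (adjusted p = 0.0587), CYP1B1 lost it without either control library or gemcitabine replicate I (adjusted p from 0.0877 to 0.162), and TIPARP lost it without any of the 4 control and gemcitabine libraries (adjusted p from 0.106 to 0.211).

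**Figure D2:**
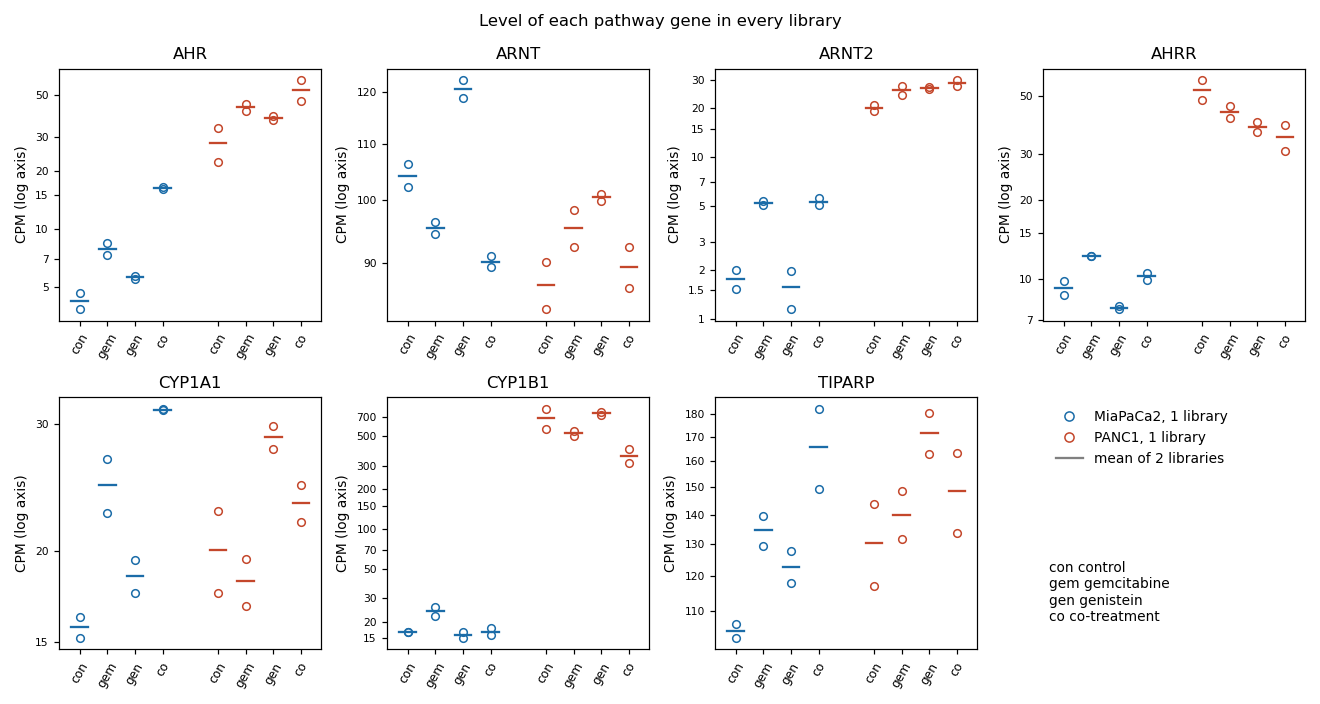
CPM (log axis, its own range in each panel) of the 7 genes in all 16 libraries, with 1 circle per library and a bar at the mean of the 2 libraries of a group. In MiaPaCa2 AHR rises from 3.83 to 4.62 CPM in controls to above 16 CPM with co-treatment, while in PANC1 the means of CYP1B1 and AHRR are lowest with co-treatment.

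In PANC1 none of the 7 genes passed with gemcitabine by limma-voom, beside 8.50% of 16909 genes tested. AHR stood at 22.4 and 33.7 CPM in controls and at 41.4 and 44.8 CPM with gemcitabine, so the groups did not overlap (log2 change 0.67, SE 0.23, adjusted p = 0.110). ARNT2 stood at 20.8 and 19.3 CPM in controls and at 27.6 and 24.1 CPM with gemcitabine (log2 change 0.41, adjusted p = 0.0912). These were the 2 of 7 genes with an unadjusted p under 0.05, as were 25.6% of all genes, and edgeR and DESeq2 also called 0 of the 7. CYP1A1 stood at 22.7 and 17.5 CPM in controls and at 19.5 and 16.8 CPM with gemcitabine, which overlap (log2 change -0.08, 95% interval -0.44 to 0.28). AHR passed without PANC1 control replicate II (log2 change 1.01, adjusted p = 0.0230) and CYP1B1 without control replicate I (-0.61, adjusted p = 0.0369). With the GC trend removed 3 of 7 genes passed, AHR (0.47, adjusted p = 0.00371), ARNT2 (0.40, adjusted p = 0.00544) and CYP1B1 (-0.39, adjusted p = 0.0251), beside 31.4% of all genes.

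Whether the gemcitabine change differed between the lines was tested in a model of all 16 libraries. The change was smaller or opposite in PANC1 for ARNT2 (difference of log2 changes, PANC1 minus MiaPaCa2, -1.17, SE 0.28, adjusted p = 0.0169), CYP1A1 (-0.77, SE 0.21, adjusted p = 0.0298) and AHRR (-0.68, SE 0.21, adjusted p = 0.0484), thus for 3 of 7 genes beside 15.3% of all genes. For the receptor itself the difference was -0.27 with a 95% interval from -0.98 to 0.43, and for CYP1B1 it was -0.87 (adjusted p = 0.0621). With the GC trend removed AHR (-0.56, adjusted p = 0.0220), CYP1B1 (-0.87, adjusted p = 0.00147) and ARNT (0.28, adjusted p = 0.0231) passed. In that fit 4747 of 17488 genes passed. CYP1B1 passed by edgeR (adjusted p = 0.0198) and DESeq2 (adjusted p = 0.00553), and without either PANC1 control library or PANC1 co-treatment replicate II (adjusted p from 0.00684 to 0.0409). The call on ARNT2 was lost without either MiaPaCa2 control library, MiaPaCa2 gemcitabine replicate I or PANC1 gemcitabine replicate II (adjusted p from 0.0595 to 0.0913). That on CYP1A1 was lost without either MiaPaCa2 control library, MiaPaCa2 gemcitabine replicate I, PANC1 control replicate I or PANC1 gemcitabine replicate II (adjusted p from 0.0728 to 0.136). AHRR lost its call without any of the 13 libraries other than PANC1 control replicate II and the PANC1 co-treatment libraries (adjusted p from 0.0606 to 0.239), and with the GC trend removed (-0.31, adjusted p = 0.0776). On log2(FPKM + 1) none of the 3 differences passed, and that of ARNT2 turned to 0.26.

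Genistein alone changed none of the 7 genes past the threshold in either line by limma-voom, nor by edgeR or DESeq2. In MiaPaCa2 11.4% of all genes passed, and in PANC1 0.0591% did. The readout gene CYP1A1 stood at 15.2 and 16.2 CPM in MiaPaCa2 controls and at 17.5 and 19.4 CPM with genistein (log2 change 0.23, 95% interval -0.07 to 0.53). In PANC1 it stood at 22.7 and 17.5 CPM in controls and at 27.7 and 29.8 CPM with genistein (log2 change 0.58, 95% interval 0.22 to 0.94, adjusted p = 0.137). Both genistein libraries lay above both controls in each line, and the adjusted p-value was above the threshold. Of the 7 genes only ARNT2 in MiaPaCa2 and CYP1B1 in PANC1 had overlapping groups with genistein, so such separation does not set a gene apart. AHRR stood at 57.4 and 48.1 CPM in PANC1 controls and lower, at 39.6 and 36.4 CPM, with genistein, without overlap (log2 change -0.42, 95% interval -0.76 to -0.08, adjusted p = 0.190). AHR had log2 changes of 0.39 in MiaPaCa2 and 0.48 in PANC1, again with the treated libraries above the controls (adjusted p = 0.216 and 0.318). CYP1B1 had log2 changes of -0.09 and 0.16, neither of which passed.

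Before adjustment 1 of 7 genes (ARNT) had a p under 0.05 in MiaPaCa2, where 27.3% of all genes did, and 5 of 7 (AHRR, ARNT, ARNT2, CYP1A1 and TIPARP) in PANC1, where 19.2% of all genes did. With the GC trend removed, in a fit that also used limma on log2 CPM in place of limma-voom, the genistein calls changed. Which step changed them was not tested. In MiaPaCa2 AHR (log2 change 0.54, SE 0.15, adjusted p = 0.0170), ARNT (0.19, adjusted p = 0.0280) and TIPARP (0.23, adjusted p = 0.0271) passed, beside 25.5% of all genes. In PANC1 CYP1A1 (0.51, SE 0.10, adjusted p = 0.00722), AHRR (-0.36, adjusted p = 0.00987), ARNT2 (0.39, adjusted p = 0.0148), AHR (0.39, adjusted p = 0.0216) and TIPARP (0.29, adjusted p = 0.0406) passed, beside 16.1% of all genes. AHR and TIPARP passed in both lines after that correction. The SE of CYP1A1 in PANC1 was 0.16 by limma-voom and 0.10 in the fit on log2 CPM with the trend removed. With all 16 libraries in a joint model CYP1A1 also passed in PANC1 (0.54, adjusted p = 0.0481). No gene showed a genistein change that differed between the lines (0 of 7 by limma-voom, 0 with unadjusted p under 0.05, and 0 by edgeR and DESeq2), where 0.0336% of all genes passed and 11.5% had an unadjusted p under 0.05. The 95% interval of that difference ran from -0.16 to 0.77 for CYP1A1 and from -0.70 to 0.77 for AHR.

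**Figure D3:**
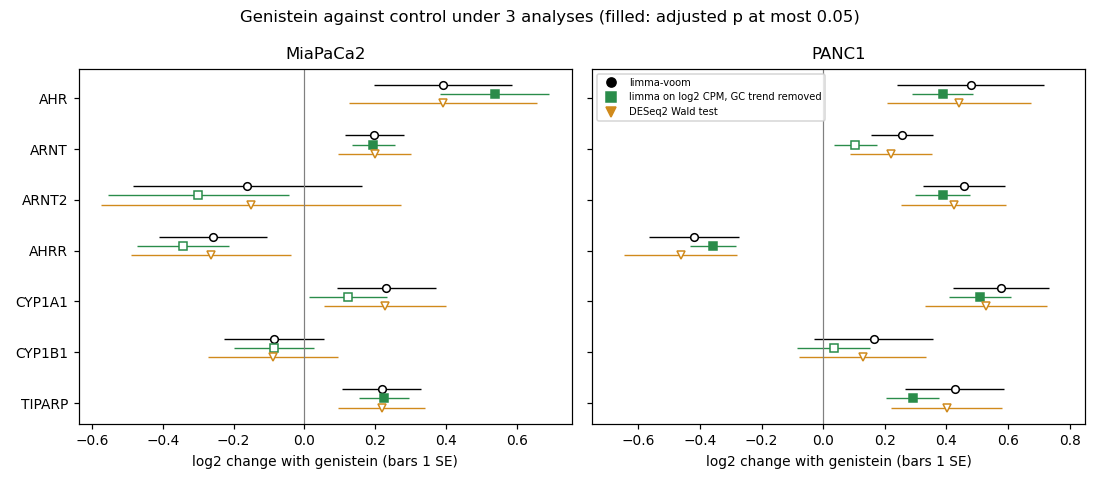
Log2 change with genistein against control for the 7 genes in MiaPaCa2 (left) and PANC1 (right) under 3 analyses, with bars of 1 SE and filled symbols at an adjusted p of at most 0.05. By limma-voom, with the GC trend removed and by DESeq2, CYP1A1 in PANC1 lies at 0.58, 0.51 and 0.53. Removal of the trend shifts some other genes more, as ARNT in PANC1 (0.26, 0.10 and 0.22) and ARNT2 in MiaPaCa2 (-0.16, -0.30 and -0.15). Only the analysis with the GC trend removed has filled symbols.

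Co-treatment raised AHR in both lines. In MiaPaCa2 AHR stood at 4.62 and 3.83 CPM in controls and at 16.5 and 16.1 CPM with both drugs, a 3.67-fold rise (log2 change 1.87, SE 0.17, adjusted p = 3.36e-06). Both treated libraries lay far above both controls. CYP1A1 stood at 31.4 and 31.3 CPM with both drugs, a 1.92-fold rise over controls (log2 change 0.94, SE 0.13, adjusted p = 8.65e-05). ARNT2 rose 2.84-fold to 5.04 and 5.60 CPM (adjusted p = 5.30e-04), and TIPARP rose 1.51-fold to 182 and 149 CPM (adjusted p = 6.47e-04). ARNT, the obligate partner of the receptor, fell slightly from 106.2 and 102.2 CPM to 91.0 and 89.4 CPM (log2 change -0.27, SE 0.09, adjusted p = 0.0196). In all 5 of 7 genes passed, 4 higher and 1 lower, beside 51.6% of all genes. CYP1B1 (log2 change -0.06, 95% interval -0.37 to 0.25) and AHRR (0.10, 95% interval -0.23 to 0.42) did not pass. The call on ARNT was lost without either control library or co-treatment replicate II (adjusted p from 0.0599 to 0.150), and in a joint model of all 16 libraries (-0.21, adjusted p = 0.0629). The other 4 calls held whichever MiaPaCa2 library was left out, but that on ARNT2 was lost on log2(FPKM + 1) (0.19, adjusted p = 0.353).

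In PANC1 co-treatment changed 4 of 7 genes, beside 19.8% of all genes, and 2 of them fell. CYP1B1 dropped from 564 and 802 CPM in controls to 400 and 313 CPM, which was 1.90-fold lower (log2 change -0.92, SE 0.20, adjusted p = 0.0172). AHRR dropped from 57.4 and 48.1 CPM to 30.8 and 38.6 CPM, which was 1.48-fold lower (log2 change -0.57, SE 0.14, adjusted p = 0.0290). AHR rose 1.90-fold to 59.7 and 46.2 CPM (log2 change 0.92, SE 0.23, adjusted p = 0.0260), and ARNT2 rose 1.46-fold to 27.4 and 29.9 CPM (adjusted p = 0.0243). The treated libraries did not overlap the controls for any of these 4 genes, and the share of all genes for which this holds was not computed. CYP1B1-AS1, on the opposite strand of CYP1B1, had 56 and 87 raw counts in controls and 22 and 19 with both drugs. These counts are not scaled for depth, which was 21889823 and 31991860 reads in controls and 14314926 and 16390908 with both drugs. The part of CYP1B1-AS1 in the result was not tested. CYP1A1 (log2 change 0.26, 95% interval -0.10 to 0.62), TIPARP (0.19, 95% interval -0.17 to 0.56) and ARNT (0.07) did not pass, and their libraries overlapped.

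These PANC1 calls were near the threshold. With single libraries left out, CYP1B1 lost its call only without co-treatment replicate II (-0.73, adjusted p = 0.0649). AHR lost it without co-treatment replicate I or any of the 4 gemcitabine and genistein libraries (adjusted p from 0.0534 to 0.09996). AHRR lost it without control replicate I, co-treatment replicate I or any of those 4 libraries (adjusted p from 0.0574 to 0.138), and ARNT2 lost it without any of the 8 libraries (adjusted p from 0.0501 to 0.0977). With only the 4 control and co-treatment libraries in the model none of the 7 passed (adjusted p from 0.0954 to 0.151 for these 4). The direction of each change was kept in all of these fits.

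**Figure D4:**
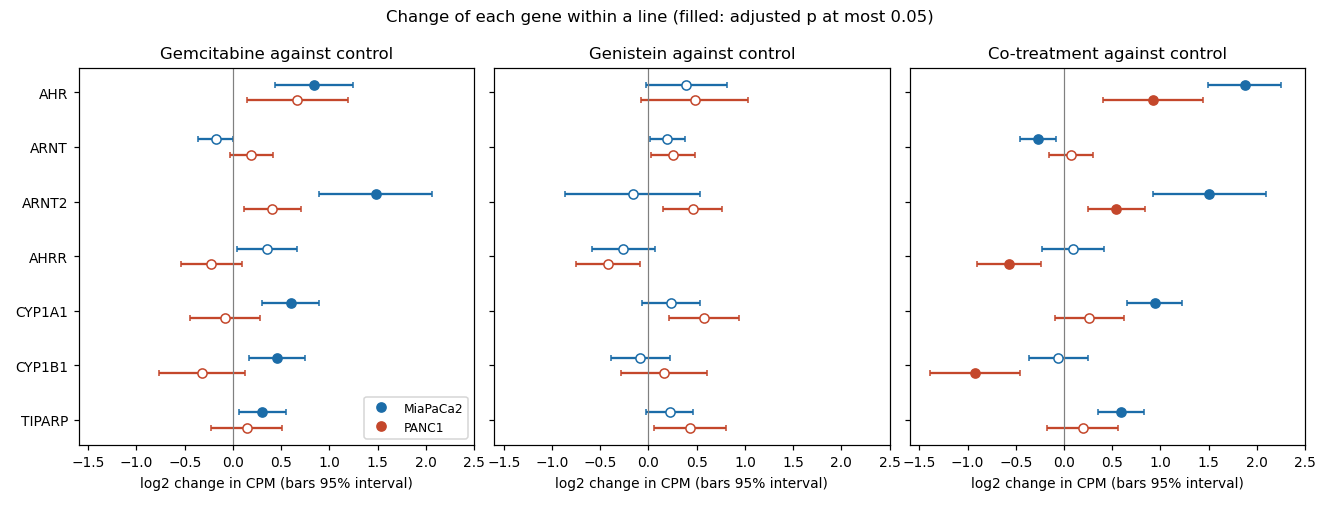
Log2 change in CPM against control for the 7 genes with gemcitabine, genistein and co-treatment, with 95% intervals, MiaPaCa2 in blue and PANC1 in red, and filled circles at an adjusted p of at most 0.05. With co-treatment AHR lies at 1.87 in MiaPaCa2 and 0.92 in PANC1, while CYP1B1 lies at -0.06 and -0.92.

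The co-treatment change differed between the lines for 4 of 7 genes, beside 18.1% of all genes. It was lower in PANC1 by 1.03 log2 units for AHR (difference, PANC1 minus MiaPaCa2, -1.03, SE 0.31, adjusted p = 0.0371), and the differences were -1.04 for ARNT2 (SE 0.28, adjusted p = 0.0232), -0.75 for CYP1A1 (SE 0.21, adjusted p = 0.0262) and -0.74 for AHRR (SE 0.22, adjusted p = 0.0342). CYP1B1 missed the threshold narrowly (-0.94, adjusted p = 0.0501), and passed by edgeR (adjusted p = 0.0128), by DESeq2 (adjusted p = 0.00265) and without either PANC1 control library or PANC1 co-treatment replicate I (adjusted p from 0.00400 to 0.0479). AHR lost its call without any MiaPaCa2 control, genistein or co-treatment library, PANC1 co-treatment replicate II, either PANC1 gemcitabine library or PANC1 genistein replicate II (adjusted p from 0.0505 to 0.138). AHRR lost it without any MiaPaCa2 library but genistein replicate I, or without replicate I of the PANC1 control or co-treatment group (adjusted p from 0.0505 to 0.188). ARNT2 lost it without either MiaPaCa2 control library, MiaPaCa2 co-treatment replicate II or replicate I of the PANC1 control or co-treatment group (adjusted p from 0.0530 to 0.118). CYP1A1 lost it without any MiaPaCa2 control or co-treatment library or replicate I of the PANC1 control or co-treatment group (adjusted p from 0.0518 to 0.132). On log2(FPKM + 1) none of these 4 passed, and the difference of ARNT2 turned to 0.55. With the GC trend removed CYP1B1 (-0.95, adjusted p = 5.43e-04), TIPARP (-0.49, adjusted p = 0.00564) and ARNT (0.25, adjusted p = 0.0327) passed as well. In that fit 5634 of 17488 genes passed.

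Addition of genistein to gemcitabine was examined by comparing co-treatment with gemcitabine alone. In MiaPaCa2 AHR rose a further 2.05-fold, from 8.46 and 7.35 CPM to 16.5 and 16.1 CPM (log2 change 1.04, SE 0.15, adjusted p = 0.00190). CYP1B1 fell from 25.9 and 22.1 CPM to 17.9 and 15.9 CPM, 1.43-fold lower (log2 change -0.52, SE 0.13, adjusted p = 0.0379), and so stood with both drugs where it had stood in controls, at 16.8 and 16.8 CPM. These were the 2 of 7 genes that passed, beside 7.34% of all genes. CYP1A1 (log2 change 0.34, adjusted p = 0.110) and TIPARP (0.29, adjusted p = 0.125) had higher values in both co-treatment libraries than in both gemcitabine libraries and did not pass, although TIPARP passed without co-treatment replicate II (0.46, adjusted p = 0.0116) and with the GC trend removed (0.26, adjusted p = 0.0163). AHR lost its call without gemcitabine replicate II (0.94, adjusted p = 0.0516) and on log2(FPKM + 1) (0.89, adjusted p = 0.228). CYP1B1 lost it without co-treatment replicate II or any of the 4 control and gemcitabine libraries (adjusted p from 0.0718 to 0.277).

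In PANC1 none of the 7 genes passed between co-treatment and gemcitabine by limma-voom, edgeR or DESeq2, beside 0.0177% of all genes. CYP1B1 stood at 505 and 551 CPM with gemcitabine and at 400 and 313 CPM with both drugs (log2 change -0.60, 95% interval -1.09 to -0.12, adjusted p = 0.284), and it was the single gene of 7 with an unadjusted p under 0.05, as were 13.4% of all genes. With the GC trend removed CYP1B1 (-0.61, adjusted p = 0.00715), AHRR (-0.43, adjusted p = 0.00450) and AHR (0.36, adjusted p = 0.0305) passed, 3 of 7 beside 15.6% of all genes.

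A gemcitabine by genistein interaction asks whether the change with both drugs departs from the sum of the separate log2 changes. No gene passed in either line by limma-voom, edgeR or DESeq2, beside 0.0249% of all genes in MiaPaCa2 and 0% in PANC1. At an unadjusted p under 0.05 there were 3 of 7 genes in MiaPaCa2 (AHR, ARNT and CYP1B1, beside 8.38% of all genes) and 2 of 7 in PANC1 (ARNT and CYP1B1, beside 4.92%). The interaction was 0.64 for AHR in MiaPaCa2 (95% interval 0.11 to 1.17, adjusted p = 0.512) and -0.22 in PANC1 (95% interval -0.97 to 0.53). For CYP1B1 it was -0.43 in MiaPaCa2 (95% interval -0.85 to -0.01, adjusted p = 0.594) and -0.77 in PANC1 (95% interval -1.42 to -0.11, adjusted p = 0.734).

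Likeness of pattern was described next. Over the 8 group means, centred within each line, CYP1A1 and TIPARP had a Pearson r of 0.95, AHR and TIPARP of 0.84, AHR and ARNT2 of 0.82 and AHR and CYP1A1 of 0.78. AHR and AHRR had an r of 0.02, AHR and CYP1B1 of -0.24 and ARNT and ARNT2 of -0.72. Over the 16 libraries the r of CYP1A1 and TIPARP was 0.73 and that of AHR and TIPARP 0.80. These points share control groups and libraries, and the values are descriptions. Among 15095 genes the patterns most like that of AHR were those of SERPINE2 (a serine protease inhibitor, r = 0.991), CBR3-AS1 (0.990) and GYG1 (0.989). For CYP1A1 they were CLDND1 (0.992), CPT1C (0.987) and PDK3 (0.987), for CYP1B1 MAP4K4 (0.990), ACTR8 (0.987) and LIMD1 (0.962), and for TIPARP MINPP1 (0.992), SLC44A1 (0.990) and RTN3 (0.984). The nearest to AHRR was ELP5 (0.980), to ARNT PPIH (0.979) and to ARNT2 LHX6 (0.998). Of the 21 genes found in this way 4 were also among the nearest 3 over the 16 libraries, namely SERPINE2, MAP4K4, MINPP1 and SLC44A1.

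The isoform FPKM table showed which transcripts carried these values. CYP1A1 was read mainly from the coding transcript ENST00000395048, with 68.7% of the gene's FPKM in MiaPaCa2 controls and 73.6% with co-treatment, where it stood at 4.03 ± 0.358 and 8.75 ± 0.658 FPKM (SD, n = 2). AHRR was read mainly from the coding transcript AHRR-201, with 74.0% in PANC1 controls and 77.4% with co-treatment. For AHR the coding transcript AHR-201 held 19.5% in PANC1 controls and 14.6% in MiaPaCa2 co-treatment, and AHR-203 and AHR-205, for which the annotation defines no coding sequence, held more. Their estimates differed widely between replicates, as for AHR-203 in PANC1 controls at 2.72 ± 2.75 FPKM. The replicate controls of AHR in PANC1 differed by 0.96 log2 units in FPKM and by 0.59 in CPM.

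The other genes of the pathway were grouped by role. Among 4 genes of the cytosolic complex, gemcitabine lowered 3 and raised 1 in MiaPaCa2, where 39.0% of all genes passed and the median log2 change over all genes was -0.01. HSP90AB1 fell by 0.88, HSP90AA1 by 0.63 and the cochaperone PTGES3 by 0.44 on the log2 scale, whereas the kinase SRC rose by 0.32. In PANC1 HSP90AB1 alone of these 4 passed (-0.74, adjusted p = 0.00101), beside 8.50% of all genes. With co-treatment HSP90AB1 fell by 0.82 in MiaPaCa2 and by 1.05 in PANC1, and PTGES3 by 0.61 and 0.52. With co-treatment 51.6% of all genes passed in MiaPaCa2 and 19.8% in PANC1. Genistein alone moved none of the 4 past the threshold in either line, beside 11.4% of all genes in MiaPaCa2 and 0.0591% in PANC1.

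Of 9 coactivators and corepressors gemcitabine lowered 4 in MiaPaCa2 (CREBBP, EP300, NCOA2 and NRIP1) and raised RELB, an NF-kappaB subunit that can pair with the receptor (log2 change 1.57 in MiaPaCa2 and 1.12 in PANC1, where it was the single gene of the 9 to pass). These counts, 5 of 9 and 1 of 9, stand beside 39.0% and 8.50% of all genes. Median log2 changes of the 9 were -0.10 in MiaPaCa2 and -0.03 in PANC1, against -0.01 and 0.03 over all genes. Genistein alone lowered NRIP1 in MiaPaCa2 (log2 change -1.32, adjusted p = 0.0110). It was the single gene of the 9 to pass there, beside 11.4% of all genes. NRIP1 was scarce, with 16 to 68 counts in MiaPaCa2 libraries and a mean of 0.436 FPKM in controls and 0.220 with genistein.

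Of 13 further genes that the receptor can induce, 8 were abundant enough to test in MiaPaCa2 and 7 in PANC1. Gemcitabine raised 3 in MiaPaCa2 (ALDH3A1 by 1.23, HES1 by 1.14 and CYP2S1 by 0.93 on the log2 scale) and lowered 3 (EREG, NQO1 and SLC7A5), with a list median of 0.11. In PANC1 it raised none and lowered NQO1 and SLC7A5. These counts, 6 of 8 and 2 of 7, stand beside 39.0% and 8.50% of all genes. NQO1, a quinone reductase that is induced through NFE2L2 as well as through the receptor, was the single gene of the list that passed with genistein alone, and it rose in both lines (log2 change 0.47, adjusted p = 0.00198 in MiaPaCa2 and 0.72, adjusted p = 0.0382 in PANC1). These genistein counts, 1 of 8 in MiaPaCa2 and 1 of 7 in PANC1, stand beside 11.4% and 0.0591% of all genes. The difference of the gemcitabine changes between the lines passed for 3 of 8 genes, beside 15.3% of all genes. These were HES1 (-1.18, adjusted p = 9.61e-04), ABCG2 (-0.99, adjusted p = 0.0392) and ALDH3A1, which had only 2 to 12 counts in PANC1 and did not pass the filter there, so its difference is not read.

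Among 12 other bHLH-PAS genes, 8 of which were tested, EPAS1, which like AHR partners with ARNT and encodes a hypoxia-inducible factor, rose in MiaPaCa2 with every treatment. In all, gemcitabine raised 2 of the 8 in MiaPaCa2 (EPAS1 and NPAS1) and lowered 3 (CLOCK, HIF1A and NPAS2), beside 39.0% of all genes, and in PANC1 it raised ARNTL2 and lowered NPAS2, beside 8.50%. Genistein alone raised EPAS1 and lowered SIM2 in MiaPaCa2, beside 11.4% of all genes, and moved none in PANC1, beside 0.0591%. Co-treatment raised 3 in MiaPaCa2 (ARNTL2, EPAS1 and NPAS1) and lowered 3 (CLOCK, HIF1A and NPAS2), beside 51.6%. In PANC1 it lowered NPAS2 alone, beside 19.8%. The log2 change of EPAS1 in MiaPaCa2 was 1.74 with gemcitabine, 0.97 with genistein and 2.33 with both. In PANC1 the level of EPAS1 was far higher at the start (log2 difference 5.53 between untreated lines), and its co-treatment change differed from that in MiaPaCa2 by -2.49 (adjusted p = 1.14e-05). EPAS1 was the single gene of the 8 to pass that test of the difference, beside 18.1% of all genes. HIF1A, another hypoxia-inducible factor that competes for ARNT, fell in MiaPaCa2 with gemcitabine (-0.63) and co-treatment (-0.94). Genes that make receptor ligands from tryptophan were scarce, except KMO in PANC1 (20 to 80 counts in a library, mean 2.90 FPKM in controls). Of 6 such genes 1 was tested in each line and none passed with any treatment, and IDO1 had at most 2 counts and TDO2 at most 16 counts in a library.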

How the data were processed

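RNA of the 16 libraries was sequenced with single 50-base reads from poly-A selected, stranded libraries. Per the methods and the submitters' processing notes, reads were aligned to GRCh37 with TopHat2 2.0.4, reads that aligned at several places were taken out with Picard 1.29, and the rest were counted per gene with HTSeq 0.6.1 and summarised as FPKM with Cufflinks 2.1.1. The annotation release and the strand setting are not given in the sources used here. The count table was deposited as raw counts per gene, and the authors deposited FPKM per gene and per isoform. Groups were taken from the labels. Counts were filtered (filterByExpr), scaled by TMM and tested with limma-voom (limma 3.58.1, edgeR 4.0.16, R 4.3.3), with the 8 libraries of a line in each model and 16 for contrasts between lines. P-values were adjusted by Benjamini-Hochberg over all genes, and a gene passed at 0.05 or less. Alternatives were edgeR, DESeq2 1.42.0, library size alone, no filter, limma on log2(FPKM + 1), a GC correction (log2 CPM, prior count 2, loess span 0.3 per library), other sets of libraries, a replicate block and each library left out. The GC correction was fitted by limma with a variance trend on log2 CPM, without the weights of limma-voom. The study's full criteria also ask for a log2 change of 0.4 and a mean above 1 FPKM. The named genes are the 7 genes, genes of 5 pathway lists and the 3 genes most like each in pattern. Members and lists were chosen with earlier results of these data known. Scripts were tested on simulated data. A further gene of the cytosolic complex list is not reported here.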

Additional observations from a re-analysis of the deposited data

Results flagged for a closer look

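For 7 changes the 2 lines differed in a test of the difference itself, over all 16 libraries by limma-voom (PANC1 minus MiaPaCa2, log2 scale). With gemcitabine these were ARNT2 (-1.17), CYP1A1 (-0.77) and AHRR (-0.68). With co-treatment they were ARNT2 (-1.04), AHR (-1.03), CYP1A1 (-0.75) and AHRR (-0.74). Both comparisons share the control libraries. No group held more than 2 libraries, so no library could be examined for standing apart within its group.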

How the results depend on the processing

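Of 28 changes of the 7 genes that passed, the alternatives gave 236 fits with the same call, 51 in the same direction that did not pass and 2 with the opposite sign, both ARNT2 on log2(FPKM + 1), at 0.26 for the gemcitabine and 0.55 for the co-treatment difference between lines. Leaving out 1 library gave 229 with the same call and 91 in the same direction that did not pass. Counts of genes passing moved as follows, and the cause was not tested. On log2(FPKM + 1) they were 2 (MiaPaCa2 gemcitabine, from 5), 3 (MiaPaCa2 co-treatment, from 5) and 0 (MiaPaCa2 co-treatment against gemcitabine, from 2). They were 2 for PANC1 co-treatment (from 4), and 0 and 1 for the gemcitabine and co-treatment differences between lines (from 3 and 4). Calls over all genes fell there too. In MiaPaCa2 they were 3619 (gemcitabine, from 6263), 6287 (co-treatment, from 8296) and 61 (co-treatment against gemcitabine, from 1179) of 16064. In PANC1 they were 2748 of 16909 (co-treatment, from 3349). For the differences between lines they were 1643 and 2718 of 17863, from 2728 and 3239. With the GC trend removed the counts of the 7 genes were 3 in MiaPaCa2 (genistein, from 0, beside 25.5% of all genes). In PANC1 they were 3 (gemcitabine, beside 31.4%), 5 (genistein, beside 16.1%) and 3 (co-treatment against gemcitabine, beside 15.6%), each from 0. They were 5 and 7 for the gemcitabine and co-treatment differences, where 4747 and 5634 of 17488 genes passed. By limma-voom 2728 and 3239 of 17863 genes passed for these differences. All 16 libraries in a joint model gave 3 for MiaPaCa2 gemcitabine and 1 each for MiaPaCa2 co-treatment against gemcitabine, PANC1 gemcitabine and PANC1 genistein. Of 17863 genes in that model 4419, 561, 3142 and 898 passed in these comparisons, in the same order. Library size alone gave 1 for PANC1 gemcitabine (beside 1689 of 16909 genes) and 2 for the co-treatment difference (beside 3221 of 17863). No low-count filter gave 1 for MiaPaCa2 co-treatment against gemcitabine (beside 833 of 27301 genes) and 2 for the co-treatment difference (beside 2804 of 31526). Only the 4 libraries compared gave 1 for MiaPaCa2 co-treatment against gemcitabine (beside 1089 of 15696 genes) and 0 for PANC1 co-treatment (beside 640 of 16697). The study's full criteria gave 3 each for MiaPaCa2 gemcitabine and co-treatment, beside 4747 and 6509 of 16064 genes. Replicate levels differed by a median of 0.17 log2 units in FPKM and 0.13 in CPM.

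Leaving out 1 library gave 2 to 5 genes for MiaPaCa2 gemcitabine, 4 to 5 for MiaPaCa2 co-treatment, 0 to 2 for MiaPaCa2 co-treatment against gemcitabine, 0 to 1 for PANC1 gemcitabine, 1 to 3 for PANC1 co-treatment, 5 to 6 for the untreated lines, and 0 to 4 and 0 to 5 for the gemcitabine and co-treatment differences. Library size alone moved the median of all genes by 0.11 (gemcitabine in either line), 0.16 (PANC1 co-treatment), 0.10 (gemcitabine difference) and 0.16 (co-treatment difference), log2(FPKM + 1) by 0.14 (PANC1 co-treatment) and 0.13 (co-treatment difference), and between untreated lines no filter moved it by -0.14 and the GC correction by -0.25.

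Replicate numbers were not used to pair the libraries in the main fits. Same-numbered libraries deviated together (r over 0.1) in 1 of 6 pairs of groups in MiaPaCa2 (-0.30 to 0.15) and 3 of 6 in PANC1 (-0.57 to 0.34). With the GC trend removed 0 of 6 did so in either line. Whether replicates I and II mark matched experiments is not given in the sources used here. A replicate block gave 1 gene for MiaPaCa2 co-treatment against gemcitabine (beside 716 of 16064 genes) and 1 for PANC1 co-treatment (CYP1B1, beside 2273 of 16909). It gave 1 each for the gemcitabine and co-treatment differences (beside 1571 and 2249 of 17863). The GC correction with the block gave 3 for MiaPaCa2 genistein (beside 3648 of 15757 genes) and 5 for the gemcitabine difference (beside 4380 of 17488). In PANC1 it gave 3 for gemcitabine, 4 for genistein and 2 for co-treatment against gemcitabine. These stand beside 4763, 2097 and 1984 of 16563 genes. With 2 libraries per group small changes can be missed. The 95% intervals are for single genes without adjustment, so they do not give the smallest change that could pass. CYP1A1 with genistein in PANC1 had an interval of 0.22 to 0.94 and did not pass.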
